A study of Mus musculus with 6 samples.

Results

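miR-143 and miR-145a are a pair of microRNAs (miRNAs, short RNAs that repress messenger RNAs) made from neighbouring hairpins. The 4 entries described here are the 3p and 5p arms of both hairpins, mmu-miR-143-3p, mmu-miR-143-5p, mmu-miR-145a-5p and mmu-miR-145a-3p (the mouse prefix is left out below). They were picked by name from the 649 mature miRNA entries of the deposited count table, and all 4 were among the 443 entries that passed the filter on low counts. The samples were skin of C57 mice, a common inbred strain, that had a diabetic ulcer or a normal ulcer, and all were labelled day 14. The labels gave 3 samples per group, named no way in which diabetes or the ulcers were produced, and gave no age, sex or number of animals. The labels do not state that each sample is a separate animal, and p-values here therefore reflect only the spread among these samples, which may be technical.

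Both hairpins are cut from a shared primary transcript that is strongly expressed in smooth muscle cells of vessel walls and in pericytes, the contractile cells that wrap small vessels. In these cells the transcription factor SRF and its partner myocardin drive the cluster, and its miRNAs favour the contractile over the proliferating state. miR-145 represses KLF4, and miR-143 represses ELK1, both factors that oppose the contractile programme. Fibroblasts also express the cluster, so in whole skin its reads can come from vessels, from hair-erecting muscle and from connective tissue.

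On the GRCm38 build, GENCODE places the Mir143 hairpin on chromosome 18 from 61649196 to 61649258 and the Mir145a hairpin on the same chromosome from 61647825 to 61647894, both on the minus strand and 1301 bases apart. In RefSeq both lie inside the span of Carmn, a long non-coding RNA gene that runs from 61645878 to 61665538. GENCODE ends Carmn at 61649625, so that there the Mir143 hairpin starts 366 bases past its end and both hairpins lie outside the gene. No other entry of the count table shared bases 2 to 8, the seed that pairs with target messages, with any of the 4 arms.

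The group labels carry a conflict that touches every difference below. The sample titles call the libraries coded D3C diabetic and those coded D3M normal, and the groups here follow the titles, whereas the headers of the authors' deposited table call D3C the control and D3M the case. In the authors' deposited table, the D3C base mean was 0.931 times the count of diabetic ulcer 2 for all 630 entries with a count there, within 0.1%. Its D3M base mean was a weighted sum of the counts of normal ulcer 1, normal ulcer 2 and diabetic ulcer 1, within 0.1% for all 640 entries above 0. The library labelled diabetic ulcer 1 therefore entered the other group in that comparison, which set 3 columns against 1. Each difference of the 4 arms and each list median is given below with and without that library.

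The columns numbered 3 held no independent measurement of the cluster. For each of the 4 arms, normal ulcer 3 could be computed to within 1 read from the other normal libraries, with weights of 0.500 on the first and 0.506 on the second. For miR-143-3p it held 320432 counts, against 320433 from this formula. The TPM of diabetic ulcer 3 could be computed as a sum with weights of 2.11 on diabetic ulcer 2 and -1.003 on diabetic ulcer 1 and a constant of 6.11. Of the 222 more abundant entries used to fit this formula, 189 lay within 1% of it. For miR-143-3p the deposited value was 25803.5 TPM, against 25802.5 TPM from this formula. Such a sum extends the gap between its sources, and this value lay above the 14168 and 18913 TPM of diabetic ulcer 1 and 2 that it was formed from. Tests were therefore run over libraries 1 and 2 of each group, with total miRNA counts of 9309055 and 10762761 in diabetic ulcer and 8949104 and 13421603 in normal ulcer.

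miR-143-3p, the guide strand of its hairpin, was among the most abundant miRNAs of the skin. It had 299079 and 423103 counts in diabetic ulcer 1 and 2, against 385091 and 252870 counts in normal ulcer 1 and 2, and ranked 8th, 5th, 8th and 6th of the 649 entries in these libraries. As a share of all counts this was 3.21% (95% Wilson interval 3.20 to 3.22) and 3.93% (3.92 to 3.94) in the diabetic libraries. In the normal libraries it was 4.30% (4.29 to 4.32) and 1.88% (1.88 to 1.89). Such intervals treat each read as a separate molecule. PCR copies of a molecule are counted too, so the intervals are too narrow for the sampling of molecules. The normal libraries bracketed both diabetic ones on this scale.

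miR-145a-5p, the guide strand of the second hairpin and the arm that represses KLF4, was far rarer. It had 10326 and 8269 counts in diabetic ulcer 1 and 2 and 11493 and 6933 counts in normal ulcer 1 and 2, and ranked between 58th and 63rd. The passenger arms were rarer still. miR-145a-3p had 1414 and 1635 counts in diabetic ulcer 1 and 2 and 1743 and 1005 counts in normal ulcer 1 and 2, and ranked between 119th and 131st. miR-143-5p had 604 and 642 counts in diabetic ulcer 1 and 2 and 808 and 455 counts in normal ulcer 1 and 2, and ranked between 159th and 162nd. A read covers a whole miRNA of 21 to 23 bases, so counts of the arms need no length term, although ligation can favour some ends over others. Within each library the order was the same, with miR-143-3p first, then miR-145a-5p, miR-145a-3p and miR-143-5p.

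Among the 4 libraries, all 4 arms were lowest in normal ulcer 2 as a share of counts, and that library also held the most skeletal muscle miRNA. The 7 entries of the skeletal muscle list took 35.7% and 44.9% of counts in diabetic ulcer 1 and 2, against 17.2% and 66.1% in normal ulcer 1 and 2. The 4 arms together took 3.35% and 4.03% of all counts in diabetic ulcer 1 and 2, against 4.46% and 1.95% in normal ulcer 1 and 2. Over the counts outside the muscle list, the cluster took 5.20% and 7.32% in diabetic ulcer 1 and 2, against 5.38% and 5.75% in normal ulcer 1 and 2. On that base the normal libraries lay close together, between the diabetic ones. In bulk tissue, fewer cells that express the cluster and less of it per cell cannot be told apart.

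For the test, counts were scaled by TMM, a method that discounts a few dominant miRNAs, and are given as CPM, the count relative to a scaled library total. miR-143-3p then had 27022 and 38838 CPM in diabetic ulcer 1 and 2, against 32344 and 30174 CPM in normal ulcer 1 and 2. Diabetic ulcer 1 was the lowest and diabetic ulcer 2 the highest of the 4 libraries, so the groups overlapped. The means were 32930 ± 8355 CPM in diabetic ulcer and 31259 ± 1535 CPM in normal ulcer (SD, n = 2 each). miR-145a-5p had 933 and 759 CPM in diabetic ulcer 1 and 2, against 965 and 827 CPM in normal ulcer 1 and 2. Here diabetic ulcer 2 was the lowest library, and the groups overlapped again, with means of 846 ± 123 CPM in diabetic ulcer and 896 ± 97.6 CPM in normal ulcer (SD, n = 2 each).

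Among the passenger arms, miR-145a-3p had 128 and 150.1 CPM in diabetic ulcer 1 and 2, against 146 and 119.9 CPM in normal ulcer 1 and 2. miR-143-5p had 54.6 and 58.9 CPM in diabetic ulcer 1 and 2, against 67.9 and 54.3 CPM in normal ulcer 1 and 2. In both cases normal ulcer 2 was the lowest library and the groups overlapped. The groups were free of overlap for 0 of the 4 arms, beside 21% of all 443 tested entries.

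**Figure D1:**
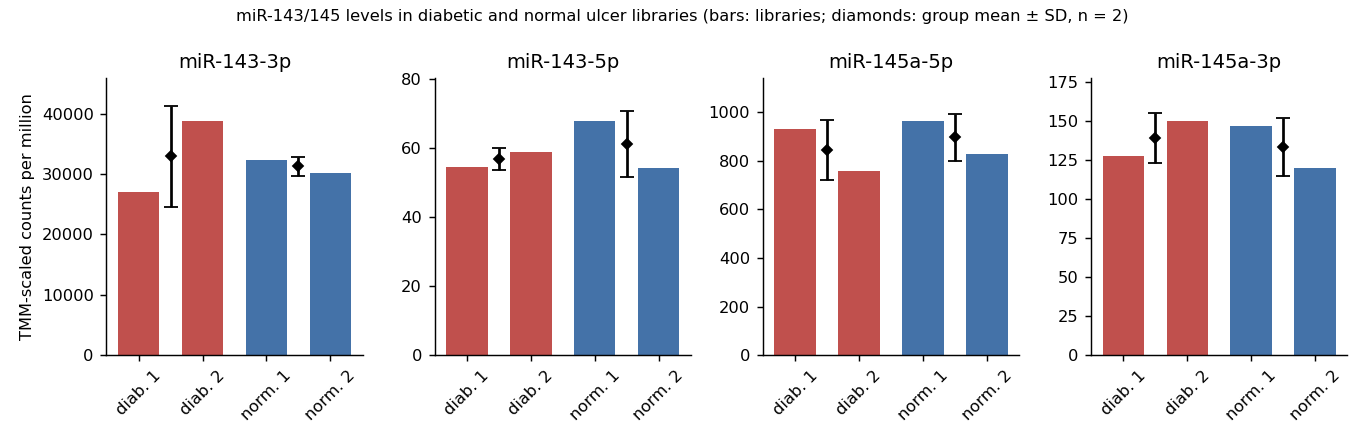
TMM-scaled CPM (vertical axis, from 0) of each arm in diabetic ulcer 1 and 2 (red bars) and normal ulcer 1 and 2 (blue bars). Black diamonds with bars are group means ± SD (n = 2). The groups overlap in every panel, and miR-143-3p runs from 27022 to 38838 CPM within the diabetic group alone.

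None of the 4 arms passed the comparison of diabetic with normal ulcer skin. edgeR's quasi-likelihood test with Benjamini-Hochberg adjustment called 0 of the 4 arms at an adjusted p of 0.05, beside 0.0% of the 443 tested entries. At an unadjusted p under 0.05 it was again 0 of the 4 arms, beside 0.903% of entries, and DESeq2 called 0 arms and 0 entries, with 0.677% of entries at an unadjusted p under 0.05. The log2 difference of miR-143-3p, diabetic minus normal, was 0.08 ± 0.32 (SE), with a 95% interval of -0.73 to 0.88. For miR-145a-5p it was -0.08 ± 0.26 (SE), with an interval of -0.74 to 0.57. Both guide strands thus had intervals that reach from well below to well above 0. A higher level by up to 1.84 times and a lower one down to 0.605 times were inside the interval of miR-143-3p. With library totals as the scale that interval widened to -1.73 to 2.14 on the log2 scale.

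The passenger arms gave intervals of like width. miR-145a-3p differed by 0.06 ± 0.24 (SE) on the log2 scale, with a 95% interval of -0.55 to 0.67. miR-143-5p differed by -0.11 ± 0.27 (SE), with an interval of -0.78 to 0.57. The adjusted p of edgeR's quasi-likelihood test was 0.999 for each of the 4 arms. Between 18.5% and 31.6% of all tested entries had a smaller log2 difference in size than a given arm of the cluster.

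**Figure D2:**
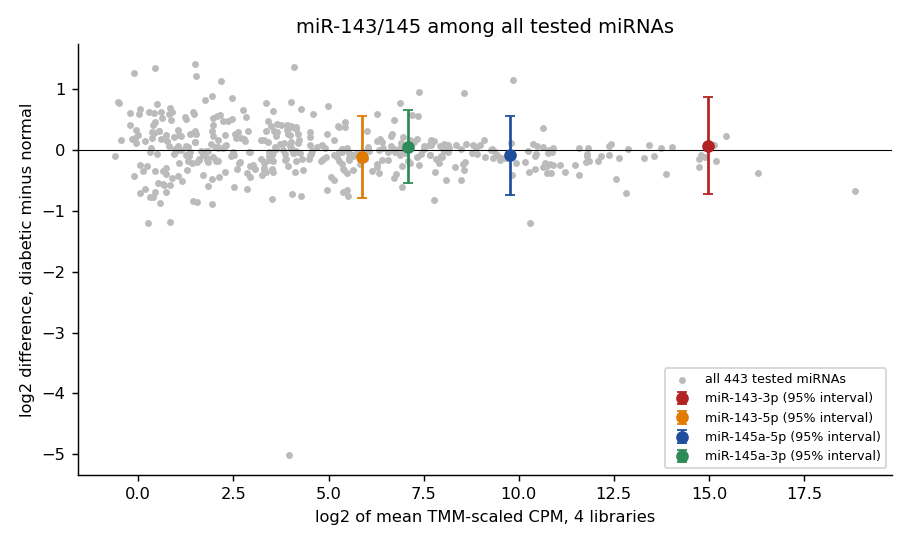
The log2 difference, diabetic minus normal (vertical axis), against the log2 of mean TMM-scaled CPM over the 4 libraries (horizontal axis) for 443 tested miRNAs (grey). The 4 coloured arms carry 95% intervals from edgeR, each of which includes 0, and their estimates lie between -0.11 and 0.08.

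Without diabetic ulcer 1, the library that enters the other group in the deposited comparison, the diabetic group was diabetic ulcer 2 alone. The log2 difference was then 0.32 ± 0.42 (SE) for miR-143-3p and 0.18 ± 0.36 for miR-145a-3p. It was -0.23 ± 0.37 (SE) for miR-145a-5p and -0.04 ± 0.39 for miR-143-5p. None passed in edgeR (adjusted p of 0.980 or more), beside 0.0% of the 477 entries tested there, and the lone library is assumed to vary like the normal ones. Without diabetic ulcer 2 instead, miR-143-3p had a log2 difference of -0.15 and miR-145a-5p one of 0.12, so the direction of both guide strands turned with the diabetic library that was kept.

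The authors' deposited table reported the same arms with the base mean of D3M divided by that of D3C, which is the opposite direction. In the authors' deposited table, miR-143-3p had a log2 fold change of -0.34 (p-value 0.317) and miR-145a-3p one of -0.15 (p-value 0.680). In the authors' deposited table, miR-145a-5p had a log2 fold change of 0.31 (p-value 0.382) and miR-143-5p one of 0.04 (p-value 0.908). The q-value was 0.991 for all 4 arms in the authors' deposited table. Those values set diabetic ulcer 2 against the other 3 independent libraries, for the reason given above.

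The ratios between the arms need no scaling across libraries, and they set diabetic ulcer 2 apart. The 3p arm of miR-145a took 12.0% of the hairpin's counts in diabetic ulcer 1 (95% Wilson interval 11.5 to 12.6) and 16.5% in diabetic ulcer 2 (15.8 to 17.3). In normal ulcer 1 and 2 it took 13.2% (12.6 to 13.8) and 12.7% (11.9 to 13.4). The other libraries lay within 12.0% to 13.2%, and the interval of diabetic ulcer 2 lay above each of theirs. These intervals too count PCR copies as separate molecules.

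The miR-143 hairpin leaned the same way in that library. Its 5p arm took 0.202% of the hairpin's counts in diabetic ulcer 1 (interval 0.186 to 0.218) and 0.152% in diabetic ulcer 2 (0.140 to 0.164). In normal ulcer 1 and 2 it took 0.209% (0.195 to 0.224) and 0.180% (0.164 to 0.197). The guide arm was thus 495 and 659 times as abundant as the passenger arm in diabetic ulcer 1 and 2, against 477 and 556 times in normal ulcer 1 and 2. In diabetic ulcer 2 both hairpins had their highest ratio of 3p to 5p counts, although the 3p arm is the guide in miR-143 and the passenger in miR-145a.

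This order was not limited to the cluster. Among 49 hairpins, miR-143 and miR-145a included, with at least 100 counts of each arm in each of the 4 libraries, 22 (both of these included) had their highest 3p to 5p ratio in diabetic ulcer 2, against 7 in diabetic ulcer 1, 10 in normal ulcer 1 and 10 in normal ulcer 2. The deviation of the log2 ratio from its mean over the 4 libraries was 0.28 for miR-143 and 0.34 for miR-145a in diabetic ulcer 2, where the median of the 49 hairpins was 0.09. No test was made of this order, since it was noticed in these libraries.

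Between groups, the arm shares overlapped. The 3p share of miR-145a was 14.3 ± 3.16% in diabetic ulcer and 12.9 ± 0.359% in normal ulcer (SD, n = 2 each; two-sided exact permutation p = 1.0). The 5p share of miR-143 was 0.177 ± 0.0354% in diabetic ulcer and 0.194 ± 0.0211% in normal ulcer (SD, n = 2 each; two-sided exact permutation p = 0.667). With 2 libraries against 2 this test cannot go below 0.333. Without diabetic ulcer 1, the differences, diabetic minus normal, were 3.59 percentage points for the 3p share of miR-145a and -0.043 for the 5p share of miR-143. Both changed sign without diabetic ulcer 2, to -0.87 and 0.0071 percentage points.

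The balance of the guide strands varied more within the diabetic group than between groups. miR-143-3p had 29.0 and 51.2 counts for each count of miR-145a-5p in diabetic ulcer 1 and 2, against 33.5 and 36.5 in normal ulcer 1 and 2. The diabetic libraries lay on either side of the normal ones. On the log2 scale the ratio of miR-145a-5p to miR-143-3p was -5.27 ± 0.58 in diabetic ulcer and -5.13 ± 0.09 in normal ulcer (SD, n = 2 each; two-sided exact permutation p = 1.0). Its difference, diabetic minus normal, was -0.14 over the 4 libraries and -0.55 without diabetic ulcer 1, and it was 0.27 without diabetic ulcer 2.

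The passenger arms kept a steadier balance. miR-145a-3p had 2.34 and 2.55 counts for each count of miR-143-5p in diabetic ulcer 1 and 2, against 2.16 and 2.21 in normal ulcer 1 and 2. Each diabetic library exceeded each normal one, and the difference on the log2 scale was 0.16 (two-sided exact permutation p = 0.333, the smallest possible, for a ratio added after the data were seen). It was 0.22 without diabetic ulcer 1 and 0.10 without diabetic ulcer 2, each with a single diabetic library left.

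**Figure D3:**
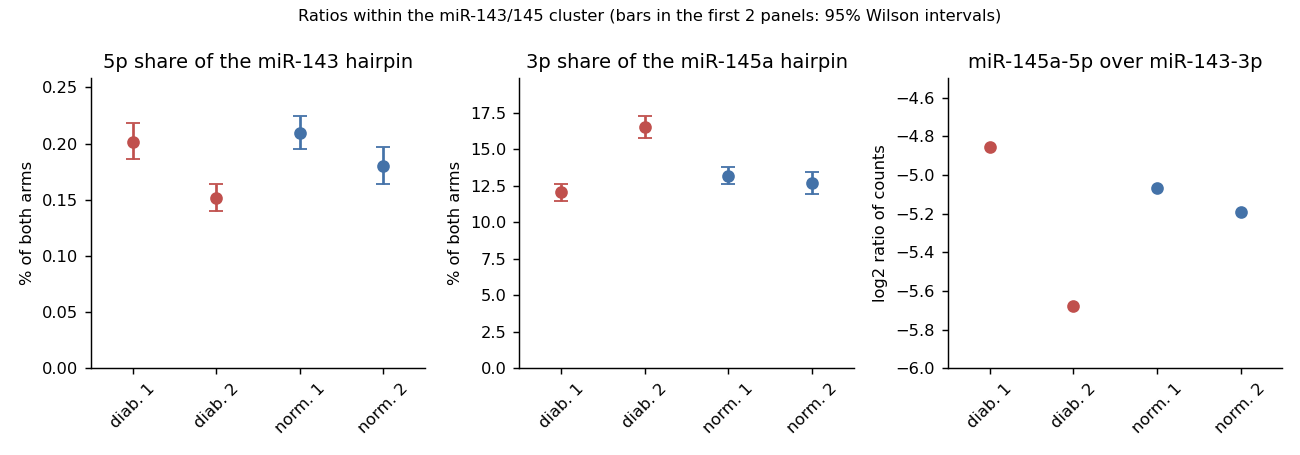
Share of the 5p arm in the miR-143 hairpin, share of the 3p arm in the miR-145a hairpin (both in % of the hairpin's counts, with 95% Wilson intervals) and log2 ratio of miR-145a-5p to miR-143-3p counts, in diabetic ulcer 1 and 2 (red) and normal ulcer 1 and 2 (blue). Diabetic ulcer 2 has the lowest 5p share (0.152%), the highest 3p share (16.5%) and the lowest ratio (-5.68), and the third panel's axis does not start at 0.

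Within groups, the gap between libraries was compared with that of all tested entries. In the diabetic group miR-143-3p differed between libraries 2 and 1 by 0.52 in log2 CPM, and 40.6% of tested entries had a larger gap. For miR-145a-5p the gap was -0.30, and 62.8% of entries had a larger one. In the normal group these gaps were -0.10 for miR-143-3p and -0.22 for miR-145a-5p, with 87.6% and 70.9% of entries beyond them. The guide strands thus moved in opposite directions between the diabetic libraries and in the same direction between the normal ones.

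The miRNAs whose levels ran most like those of each guide strand were found by the root mean square (RMS) difference of log2 CPM, each centred on its mean over the 4 libraries, among 138 entries with a mean of at least 100 CPM. With 4 libraries this is a description, and the points share their scaling. Nearest to miR-143-3p were miR-7a-5p (RMS difference 0.037), miR-532-5p (0.039), miR-103-3p (0.058), miR-148b-3p (0.063) and miR-126a-5p (0.071), where the median entry was at 0.30. All of them were lowest in diabetic ulcer 1 and highest in diabetic ulcer 2. miR-126a-5p comes from a hairpin inside an endothelial gene, and had 215 and 330.2 CPM in diabetic ulcer 1 and 2, against 248 and 261 CPM in normal ulcer 1 and 2.

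Nearest to miR-145a-5p were let-7c-5p (RMS difference 0.027), miR-24-3p (0.044), miR-152-3p (0.049), let-7b-5p (0.051) and miR-99a-5p (0.059), where the median entry was at 0.23. All but miR-99a-5p were lowest in diabetic ulcer 2 and highest in normal ulcer 1. miR-99a-5p was lowest in normal ulcer 2. The other guide strand of the cluster was far down each list. miR-145a-5p stood at 0.30 from miR-143-3p, with 70 of the 138 entries closer, and seen from miR-145a-5p, 86 of the 138 entries were closer than miR-143-3p. The passenger arm miR-145a-3p stood at 0.12 from miR-143-3p, with 12 entries closer, and at 0.20 from its own guide strand miR-145a-5p, with 60 closer.

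Mature sequences of 4 of these neighbours, from RefSeq on GRCm38.p6, are given with their seeds. They are written 5′ to 3′ with the seed, bases 2 to 8, in capitals, and are shown because the first pair share a seed but fell on different sides, and the second pair lie in the same cluster and fell on the same side. Another pair with a shared seed, let-7b-5p and let-7c-5p, fell on the same side. This pair is not linked by seed alone, since let-7b-5p, on chromosome 15 (85707325 to 85707346), lies beside a copy of let-7c-5p.
miR-148b-3p: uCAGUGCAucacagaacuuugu
miR-152-3p: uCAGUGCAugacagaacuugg
let-7c-5p: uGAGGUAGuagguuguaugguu
miR-99a-5p: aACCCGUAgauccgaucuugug
miR-148b-3p, from chromosome 15 (103285185 to 103285206), was among the 5 nearest to miR-143-3p. miR-152-3p, from chromosome 11 (96850439 to 96850459), has the same seed and was among the 5 nearest to miR-145a-5p. let-7c-5p has copies on chromosome 16 (77599672 to 77599693) and chromosome 15 (85706616 to 85706637), whose reads cannot be divided, and miR-99a-5p lies on chromosome 16 (77598940 to 77598961), beside the first of them.

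**Figure D4:**
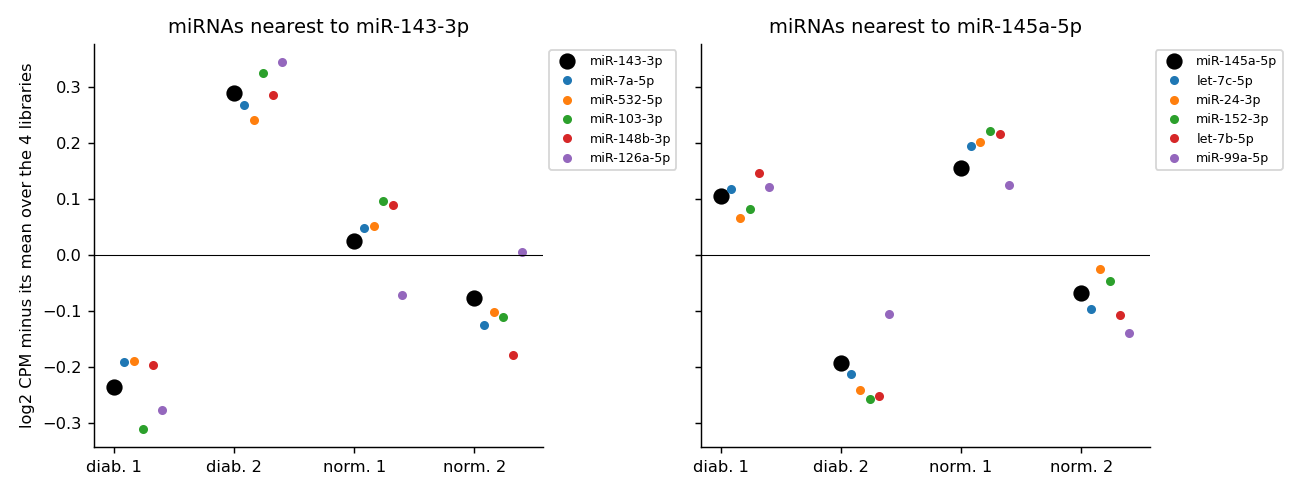
The log2 CPM minus its mean over the 4 libraries (vertical axis) in diabetic ulcer 1 and 2 and normal ulcer 1 and 2, for miR-143-3p (left, black) and miR-145a-5p (right, black) with the 5 nearest miRNAs of each (colours, shifted sideways for clarity). In diabetic ulcer 2 miR-143-3p lies 0.29 above its mean and miR-145a-5p 0.19 below its own (-0.19).

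Other miRNAs with a known role in smooth muscle cells did not pass either. Of 15 entries on that list, 0 were called higher and 0 lower by edgeR, beside 0.0% of all tested entries, and 2 had a positive and 13 a negative log2 difference, with a median of -0.22, where the median of all tested entries was -0.02. With library totals as the scale the counts were 6 positive and 9 negative (median -0.03, all entries 0.17), and without diabetic ulcer 1 they were 5 and 10 (median -0.33, all entries -0.00461). The most abundant was miR-26a-5p, which restrains smooth muscle differentiation, with 69478 ± 7439 CPM in diabetic ulcer and 90397 ± 4188 CPM in normal ulcer (SD, n = 2 each). miR-21a-5p, which promotes smooth muscle cell growth, had 29266 ± 1029 CPM in diabetic ulcer and 31465 ± 4188 CPM in normal ulcer (SD, n = 2 each). miR-100-5p, which targets mTOR, had 5420 ± 321 CPM in diabetic ulcer and 5156 ± 1097 CPM in normal ulcer (SD, n = 2 each).

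Marker miRNAs of the other cells that make up skin are given for their part in the libraries, and their part in the levels of the cluster was not tested. The endothelial, fibroblast, skeletal muscle, epithelial, leukocyte and erythroid lists had 4, 5, 7, 7, 5 and 4 tested entries. Of these edgeR called 0 entries in either direction, beside 0.0% of all tested entries. With library totals 1 skeletal muscle entry, miR-499-5p, was called lower (named after its values were seen). Its log2 difference was -4.29 there and -6.03 without normal ulcer 1, where the normal group was normal ulcer 2 alone. The median log2 differences were 0.07 (endothelial), -0.07 (fibroblast), -0.42 (skeletal muscle), -0.28 (epithelial), 0.09 (leukocyte) and -0.17 (erythroid). Without diabetic ulcer 1 they were 0.40, -0.36, -0.41, -0.81, 0.61 and 0.03 in the same order of lists, again with 0 entries called. With library totals the skeletal muscle and erythroid medians changed sign, to 0.07 and 0.21, where the median of all entries was 0.17. The summed endothelial list, led by miR-126a-3p, had 10002 and 18329 CPM in diabetic ulcer 1 and 2, against 11809 and 15863 CPM in normal ulcer 1 and 2. The fibroblast list, led by the merged entry of miR-199a-3p and miR-199b-3p, whose reads cannot be divided, had 16525 and 11461 CPM in diabetic ulcer 1 and 2, against 18450 and 11705 CPM in normal ulcer 1 and 2. The epithelial list, led by the keratinocyte miRNA miR-203-3p, had 42820 and 19321 CPM in diabetic ulcer 1 and 2, against 52552 and 22990 CPM in normal ulcer 1 and 2.

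On the scale of summed CPM, library 2 differed from library 1 in the same direction in both groups. This was so for each of these 6 lists and for the smooth muscle list. As a share of all counts it did not hold for the endothelial, leukocyte and erythroid lists. The endothelial list, for example, took 1.19% and 1.86% of counts in diabetic ulcer 1 and 2, against 1.57% and 0.99% in normal ulcer 1 and 2. miR-143-3p had 2.70 and 2.12 counts for each count of the endothelial list in diabetic ulcer 1 and 2, against 2.74 and 1.90 in normal ulcer 1 and 2. For each count of the fibroblast list it had 1.64 and 3.39 counts in diabetic ulcer 1 and 2, against 1.75 and 2.58 in normal ulcer 1 and 2. Relative to the endothelial list, library 1 was the higher in both groups, and relative to the fibroblast list, library 2 was. The leukocyte list had 624 and 1398 CPM in diabetic ulcer 1 and 2, against 739 and 891 CPM in normal ulcer 1 and 2. The erythroid list had 933 and 1056 CPM in diabetic ulcer 1 and 2, against 600 and 1601 CPM in normal ulcer 1 and 2.

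Each difference was recomputed under other scalings, filters, tools and choices of libraries. The setting over all 6 columns treated the columns numbered 3 as further replicates. They follow from the other columns, so its p-values do not reflect independent samples. miR-143-3p ran from a log2 difference of -0.15 without diabetic ulcer 2 to 0.36 over all 6 columns. miR-145a-5p ran from -0.23 without diabetic ulcer 1 to 0.12 without diabetic ulcer 2. miR-145a-3p ran from 0.0073 without diabetic ulcer 2 to 0.22 over all 6 columns, and stayed above 0 in each setting run. miR-143-5p ran from -0.15 without normal ulcer 2 to 0.06 without normal ulcer 1. None of the 4 arms passed in any of these settings. Over all 6 columns edgeR called 0.0% of the 438 tested entries (11.0% at an unadjusted p under 0.05), with library totals 0.226% of 443, and without normal ulcer 1 1.29% of 464.

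**Figure D5:**
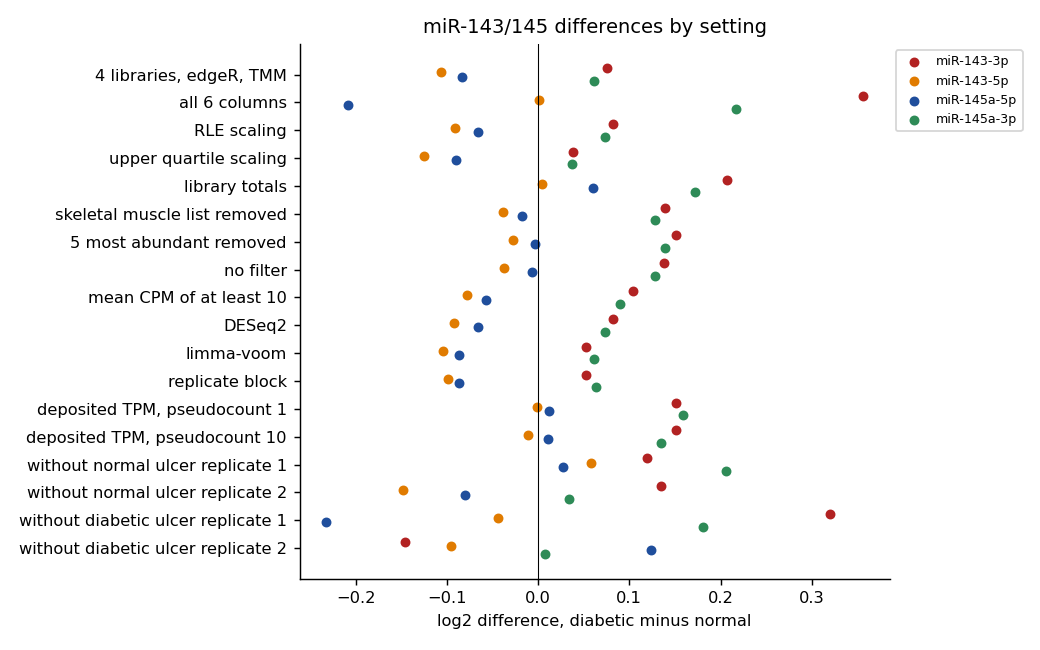
The log2 difference, diabetic minus normal (horizontal axis), of each arm (colours) under the test over 4 libraries (top row) and 17 alternatives (rows below). The estimates lie between -0.23 and 0.36 (-0.23 for miR-145a-5p without diabetic ulcer 1, 0.36 for miR-143-3p over all 6 columns).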

How the data were processed

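RNA came from a mirVana isolation and was sequenced as small RNA on an Illumina platform, per the labels' protocols. The build is GRCm38, also called mm10, per the submitters' processing notes; which aligner, counter and miRNA annotation were used is not given in the sources used here. The deposited count table holds whole-number counts per mature miRNA, with no normalization by the authors. Its columns numbered 3 are an exception. The counts of normal ulcer 3 follow from the other normal libraries, to within 1 read for 629 of 638 entries. For diabetic ulcer 3 the TPM values follow from the other diabetic libraries by the formula above. That formula was fitted to TPM only, and no formula was fitted to the counts of diabetic ulcer 3. The authors' TPM values are counts over a constant per column in the columns numbered 1 and 2, with no length term. The deposited comparison was an unpaired DESeq2 run, per the file headers, and lists the authors' fold ratio and log2 fold change with p-value and q-value. Per the file headers, its base means and the miRNA lengths are other values. All numeric columns were mapped (0 left over).

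The members and lists were chosen with earlier results of these data known. Libraries 1 and 2 of each group entered edgeR 4.0.16 (R 4.3.3): filterByExpr, TMM scaling (factors 1.19 and 1.01 for diabetic ulcer 1 and 2, 1.33 and 0.624 for normal ulcer 1 and 2), glmQLFit and glmQLFTest with group as the only term, adjusted over 443 entries. The standard error is the difference over the square root of F, and intervals use edgeR's total degrees of freedom. The code was tested on simulated data. Named miRNAs were the 4 arms, any entry sharing a seed (none did), the 5 nearest to each guide strand, and up to 3 abundant members of each of 7 lists, of which part is named. Alternatives used DESeq2 1.42.0, limma 3.58.1, other scalings, filters, columns and libraries. The lists of the text rest on counts and medians, with no set test.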

Additional observations from a re-analysis of the deposited data

How the results depend on the processing

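Over 17 alternatives to the test of the 4 arms, no arm passed. The direction of miR-143-3p turned without diabetic ulcer 2 (-0.15). That of miR-143-5p turned over all 6 columns (0.00057), with library totals (0.0047) and without normal ulcer 1 (0.058). That of miR-145a-5p turned with library totals (0.0602), on deposited TPM with pseudocounts of 1 (0.012) and 10 (0.011), without normal ulcer 1 (0.03) and without diabetic ulcer 2 (0.12). miR-145a-3p kept its sign. Leaving out single libraries gave ranges of -0.15 to 0.32 for miR-143-3p, -0.15 to 0.06 for miR-143-5p, -0.23 to 0.12 for miR-145a-5p and 0.0073 to 0.21 for miR-145a-3p. For the arm shares these ranges were -0.043 to 0.0071 percentage points (miR-143 5p) and -0.87 to 3.59 (miR-145a 3p), and for the log2 ratio of miR-145a-5p to miR-143-3p they were -0.55 to 0.27. The causes were not tested, but fewer libraries entered each such fit.

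Library totals moved the median of all entries to 0.17, and 1 entry was called there, miR-499-5p of the skeletal muscle list (named after its values were seen). The log2 difference of miR-499-5p was -4.29 with library totals and -6.03 without normal ulcer 1, so its low value was not limited to that scale. Without normal ulcer 1, 6 entries were called (0 to 6 over the libraries left out), none of them in the cluster. Over all 6 columns 0 of 438 entries were called, with 11.0% at an unadjusted p under 0.05.

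The replicate numbers are not stated to pair samples. Deviations of same-numbered libraries from their group means had a correlation of 0.443 across 443 entries. With 2 libraries per group these deviations mirror each other, so swapping the numbers within a group would only turn the sign of the correlation. It therefore cannot show whether samples are paired. With the replicate block, 0 entries were called (20 at an unadjusted p under 0.05, against 4 without), and miR-143-3p differed by 0.05 and miR-145a-5p by -0.09. The lowest count of any arm in the 4 libraries was 455. The standard error of miR-143-3p was 0.32 over the 4 libraries, 0.98 with library totals and 0.22 with the replicate block.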
